A study of Mus musculus with 27 samples.

Results

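Serglycin, encoded by Srgn, was measured over 10 days of embryoid body differentiation in mouse embryonic stem cells whose Sox17 was targeted by a short hairpin RNA (shRNA). Srgn was chosen by its own values: of 13297 genes tested it had the lowest difference between the Sox17 shRNA arm and the control arm, averaged over days 4, 5, 6, 8 and 10. It is 1 gene with 1 probe set (1417426_at) among the 45101 probe sets of the array, so no other probe set checks it. That average was -4.68 on the log2 scale, a 25.7-fold lower value. The next genes in the order were Myl7 (-3.55), Myh6 (-3.08) and Myl2 (-2.85), all encoding myosin chains of heart muscle. Because these values chose the gene, they are given as a description with no test. Tests of Srgn are limited to comparisons among days 0 and 2, whose means the choice did not use. Their spread was estimated over all 27 arrays, those of days 4 to 10 included.

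Serglycin is a small core protein with a run of serine and glycine residues to which long sulfated sugar chains, chondroitin sulfate or heparin, are attached. It is best known from the secretory granules of mast cells, cytotoxic lymphocytes and platelets, where the negative charge of its chains packs proteases and chemokines, and it was first cloned from a rat yolk sac tumour. Sox17 is a transcription factor of definitive and extraembryonic endoderm and of endothelium.

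The Sox17 shRNA arm and the control arm, which carried an shRNA against firefly luciferase, were both made from AB2.2 embryonic stem cells. Both arms shared a lentivirus that also makes enhanced green fluorescent protein and were sorted on it, and neither is an untransduced culture. Embryoid bodies formed in hanging drops and were plated between days 4 and 5. Total RNA was hybridised from 7 days (0 and 2, then daily over 4 to 6, then 8 and 10), with 2 biological replicates per arm and day except for 1 Sox17 shRNA array of undifferentiated cells. The labels name 1 shRNA per target and do not say whether replicates are separate transductions, so the spread between replicates may not include that between transduced populations. At day 0 the 10 pluripotency markers averaged 11.4 (log2) on the Sox17 shRNA array and 11.7 and 11.8 on the control arrays, against 7.56 and 7.58 with Sox17 shRNA and 7.27 and 7.30 in control at day 10. The bioB spike-in, added to each hybridisation, read 9.03 to 9.52 on 9 arrays (both early days, and the day 4 arrays numbered 1), 7.81 on Sox17 shRNA replicate 1 of day 5, and 6.34 to 7.13 on the other 17. The actin control's 3′ minus 5′ signal, a sign of RNA integrity, was 0.753 and 0.862 on Sox17 shRNA replicate 2 of days 6 and 4, and 0.327 to 0.548 on the other 25 arrays.

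Srgn lies on mouse chromosome 10 at chr10:62493833-62527445 (GRCm38.p6), on the minus strand. RefSeq lists promoter windows for 2 start sites. The 250 bases before the outer one, chr10:62527446-62527695 on the minus strand, are shown because the experiment lowers a factor of the Sox family. Sox proteins bind a short core, searched here as ATTGT on either strand, and the match is in capitals.
Srgn, outer start site: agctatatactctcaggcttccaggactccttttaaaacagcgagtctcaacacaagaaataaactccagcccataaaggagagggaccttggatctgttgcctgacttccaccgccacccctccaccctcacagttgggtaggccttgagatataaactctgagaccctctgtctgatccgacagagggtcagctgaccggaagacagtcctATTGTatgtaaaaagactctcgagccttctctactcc
The core occurs 1 time, starting 37 bases before the start site. It occurs 0 times in the 250 bases before the inner start site, chr10:62507758-62508007. Of all 32851 RefSeq promoter windows, 27.7% hold it at least 1 time in their 250 bases before the start site, so a match of this length is common. No binding was measured here.

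Srgn was low in undifferentiated cells of both arms. At day 0 it read 6.67 (log2) on the Sox17 shRNA array and 5.80 and 5.74 on the control arrays. The single Sox17 shRNA array lay above both controls. The difference was 0.90 (SE 1.08, 95% interval -1.38 to 3.18, 1 array against 2, limma adjusted p = 0.821) and did not pass, where 1.89% of genes did. The SE comes from the spread of all groups, since the Sox17 shRNA arm has no replicate that day.

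By day 2 Srgn had risen in control cells. It read 10.3 and 10.2 on the control arrays of day 2, against 5.80 and 5.74 at day 0. Day 2 was thus 22.2-fold higher than day 0 (4.47, SE 0.88, higher on 2 of 2 arrays, limma adjusted p = 7.23e-04), where 32.1% of genes changed and 16.6% rose. It was the 7th largest rise of the 13297 genes. Sox17 had also risen by then, reading 6.01 and 6.17 on the same control arrays, against 3.75 and 3.92 in undifferentiated control cells. The Sox17 shRNA arrays of day 2 lay below these controls for Sox17, with 5.12 in replicate 1 and 4.48 in replicate 2. Most of the Sox17 rise in control cells came later, with 10.3 and 10.7 on the day 4 arrays. Which of these genes rose first was not tested.

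The Sox17 shRNA replicates parted at day 2. Srgn read 9.43 in replicate 1 and 5.64 in replicate 2, against 10.3 and 10.2 in the control arrays of that day. Replicate 1 lay near the control. Replicate 2 lay near the control arrays of day 0 (5.80 and 5.74) and below the Sox17 shRNA array of day 0 (6.67). The arm difference was -2.70 (SE 0.88, 95% interval -4.56 to -0.84, lower in 2 of 2 arrays, limma adjusted p = 0.127) and did not pass, where 2.54% of genes passed, 0.993% were lower and 23.6% had both Sox17 shRNA arrays under both controls. One array decides this call. Without Sox17 shRNA replicate 1 the difference was -4.60 (limma adjusted p = 0.00481), and without replicate 2 it was -0.81 (0.876). From day 0 to day 2 the Sox17 shRNA arm changed by 0.87 (SE 1.08, limma adjusted p = 0.675, where 16.4% of genes passed). The change of that arm minus the change of the control arm was -3.60 (SE 1.40, 95% interval -6.54 to -0.66, limma adjusted p = 0.485, where 0.293% passed), and -5.50 (0.0376) without Sox17 shRNA replicate 1.

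**Figure D1:**
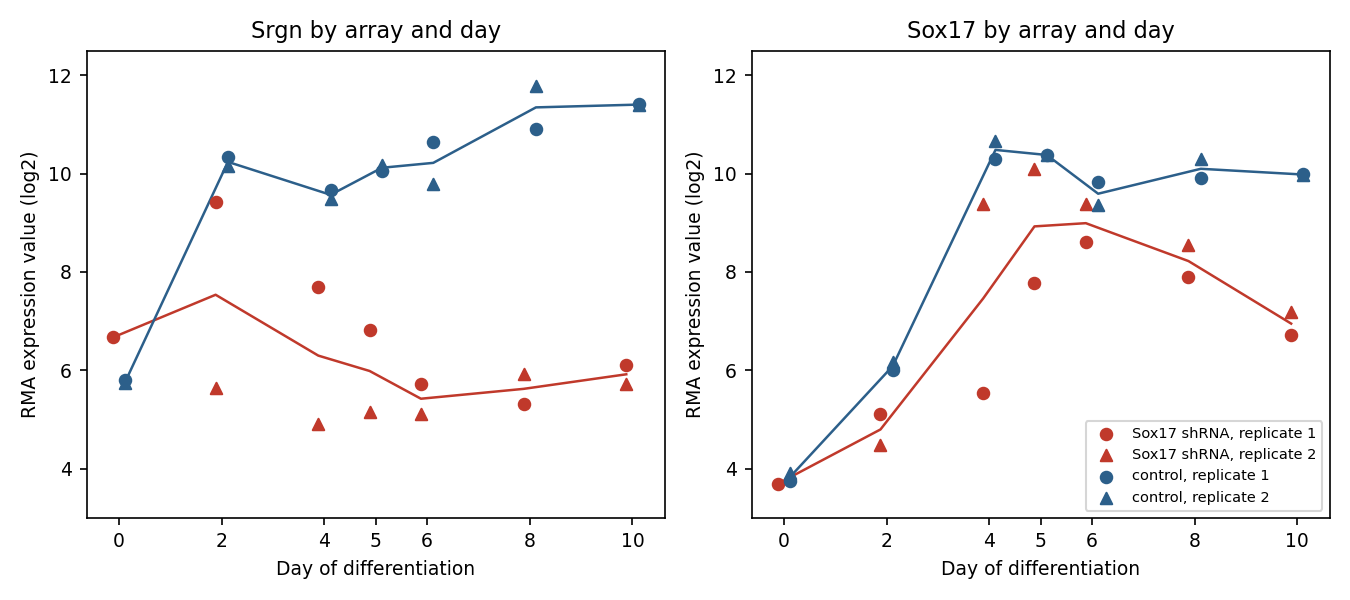
Srgn (left) and Sox17 (right) on each array, as RMA expression values on the log2 scale against the day of differentiation; red is Sox17 shRNA, blue control, circles replicate 1, triangles replicate 2, and lines join the means. From day 4 to day 10 the Sox17 shRNA arrays lie between 4.90 and 7.69 for Srgn, and the control arrays between 9.48 and 11.8.

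From day 4 on the arms were apart on every array. At day 4 Srgn read 7.69 and 4.90 with Sox17 shRNA, against 9.66 and 9.48 in control. The day 4 arrays numbered 1 and 2 differed in bioB (9.52 and 6.97 with Sox17 shRNA, 9.27 and 6.89 in control), and the Srgn difference was -1.97 between the arrays numbered 1 and -4.57 between those numbered 2. With bioB as a term in the fit, the mean difference of days 4 to 10 was -4.82, against -4.68 without it. At day 5 Srgn read 6.82 and 5.16 with Sox17 shRNA, against 10.1 and 10.2 in control. Replicate 1 of the Sox17 shRNA arm was again the higher, and on both days it stood above every day 0 control array.

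At day 6 Srgn read 5.72 and 5.12 with Sox17 shRNA, against 10.7 and 9.79 in control. At day 8 it read 5.32 and 5.93 with Sox17 shRNA, against 10.9 and 11.8 in control. At day 10 it read 6.12 and 5.72 with Sox17 shRNA, against 11.4 and 11.4 in control. The Sox17 shRNA replicates were now within 0.60 of each other, near the control arrays of day 0 and below the Sox17 shRNA array of day 0 (6.67). Control cells held their highest values at days 8 and 10, while at day 6 control replicate 2 read below the control arrays of days 2 and 5.

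The gap between the lowest control and the highest Sox17 shRNA array of a day was 1.78 on day 4 and wider on each day sampled after it, with 3.25, 4.07, 4.98 and 5.28. Over days 4 to 10 the 10 Sox17 shRNA arrays had a lowest, median and highest value of 4.90, 5.72 and 7.69, and the 10 control arrays of 9.48, 10.4 and 11.8. That every Sox17 shRNA array lay under every control array of these days was so for 18 genes, 0.135% of those tested; the choice of Srgn favours such a gene and nothing is read from it. Within each day taken alone the arms were likewise apart on all 5 days for 2.11% of genes. As fold differences of the means, Srgn was 9.65-fold lower on day 4, and 17.6-fold, 27.8-fold, 52.9-fold and 44.8-fold lower on the 4 days after it. These differences were the lowest of all genes at days 4, 5 and 10, the 2nd lowest at day 8 and the 6th lowest at day 6. A gene near background keeps a positive RMA value, so folds against such values can be too small. In RNA of whole cultures, fewer cells that make serglycin and less Srgn RNA per cell cannot be told apart.

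The 14 groups of arm and day order as follows by their mean Srgn level. Control at days 10 (11.4) and 8 (11.3) came first and overlapped each other. Control at days 2 and 6 (10.2 each) and 5 (10.1) followed, each overlapping its neighbour in the order, and then control at day 4 (9.57), which overlapped neither neighbour. All others lay lower, Sox17 shRNA at day 2 (7.54) and then Sox17 shRNA at days 0, 4, 5 and 10, control at day 0 (5.77), and Sox17 shRNA at days 8 and 6 (5.62 and 5.42). Among these 8 groups each overlapped its neighbour, so the order among them is not resolved, and control cells of day 0 sit in the midst of differentiated Sox17 shRNA cells.

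Set beside Sox17 on the same arrays, Srgn did not follow the level of Sox17 within the Sox17 shRNA arm. Sox17 is given here by the probe set with the higher mean. Its arm differences on days 4, 5, 6, 8 and 10 were -3.02, -1.45, -0.60, -1.88 and -3.03. The arms did not overlap for Sox17 on 4 of these 5 days. At day 4 Sox17 read 5.53 in replicate 1 and 9.39 in replicate 2, while Srgn read 7.69 and 4.90. Replicate 1 minus replicate 2 was thus -3.86 for Sox17 and 2.79 for Srgn. At day 5 Sox17 read 7.77 and 10.1, and Srgn 6.82 and 5.16. Replicate 2 of day 5 differed from the control mean by -0.30 for Sox17 and by -4.96 for Srgn.

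At day 6 Sox17 read 8.60 and 9.39 with Sox17 shRNA, against 9.83 and 9.35 in control, so the arms overlapped for Sox17. They did not for Srgn, which differed from the control mean by -4.50 in replicate 1 and -5.10 in replicate 2. On 4 of the 5 days from day 4 the replicate with more Sox17 had less Srgn, day 8 being the exception, where replicate 1 minus replicate 2 was -0.64 for Sox17 and -0.60 for Srgn. At day 2 both were higher in replicate 1, by 0.64 for Sox17 and 3.79 for Srgn.

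The other Sox17 probe set ordered the Sox17 shRNA replicates in the same way on all 6 days with 2 arrays. By the maker's naming, the suffix _x_at of the first one marks probes that can also bind other sequences. In control cells Srgn at day 2, with Sox17 near 6, stood as high as at day 6, with Sox17 near 9.6. Replicate 2 of days 4 and 6 in the Sox17 shRNA arm are the arrays with the high 3′ to 5′ difference. On replicate 2 of day 5, where that difference was 0.431, Srgn read 5.16, against 4.90 and 5.12 on those arrays.

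**Figure D2:**
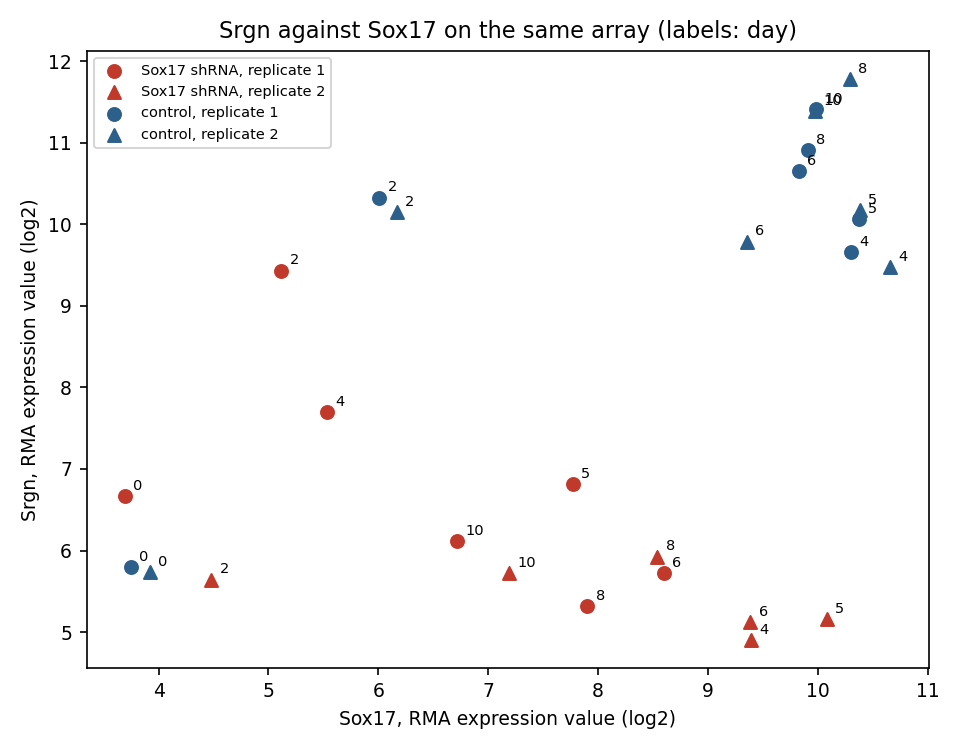
Srgn against Sox17 on the same array, both as log2 RMA values, with 1 point per array labelled by its day; red is Sox17 shRNA, blue control, circles replicate 1, triangles replicate 2. The Sox17 shRNA arrays of replicate 2 at days 4, 5 and 6 combine Sox17 values of 9.39 to 10.1 with the lowest Srgn values, 4.90 to 5.16, and the control arrays of day 2 combine Sox17 values of 6.01 and 6.17 with Srgn above 10.

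By Pearson's r the genes most like Srgn over the 27 arrays included both subunits of the cubilin receptor. Neither subunit was among the 10 highest by Spearman's correlation or after subtracting day means. Aqp8, Dram1, Pla2g12b and Pga5 were among the 10 highest by each of these measures. After subtracting day means Lama1 was the highest, and it was also among the 10 highest by Spearman's correlation. Likeness was Pearson's r of log2 values among 13296 other genes, given as a description, since arrays of 1 arm and of neighbouring days are not independent and the arms form separate clusters. The 10 highest were Aqp8, a water channel (0.930), Dram1, a lysosomal membrane protein (0.916), Amn (0.886) and Cubn (0.880), whose products amnionless and cubilin form an endocytic receptor of visceral endoderm, Pla2g12b (0.873), Klb, a co-receptor for endocrine fibroblast growth factors (0.861), Hdc, the histamine-forming enzyme that mast cells also use (0.856), Nostrin (0.840), the pepsinogen gene Pga5 (0.839) and Bend5 (0.826). All 10 were lower with Sox17 shRNA on average over days 4 to 10, with differences of -0.38 (Hdc) to -2.73 (Cubn), and all 10 were lower at day 2. At day 2, 9 of the 10 read higher in Sox17 shRNA replicate 1 than in replicate 2, as Srgn did, Klb being the exception (5.10 and 5.29). These features follow in part from the choice by likeness.

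Cubn had the largest mean difference of the 10. At day 2 it read 9.72 and 5.40 with Sox17 shRNA, against 9.83 and 9.95 in control, so replicate 1 was at the control level and replicate 2 was not. At day 4 it read 8.25 and 4.95 with Sox17 shRNA, against 9.69 and 8.87 in control. At day 10 it read 7.26 and 5.47 with Sox17 shRNA, against 9.18 and 9.29 in control, with replicate 1 still the higher, whereas Srgn was low in both by day 6. The 5 lowest r were those of Trappc2l (-0.85), Ntpcr (-0.79), Cox4i1 (-0.79), Sin3b (-0.77) and Nfatc3 (-0.77), all 5 higher with Sox17 shRNA on average. Sox17 ranked 585th, with r = 0.42.

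**Figure D3:**
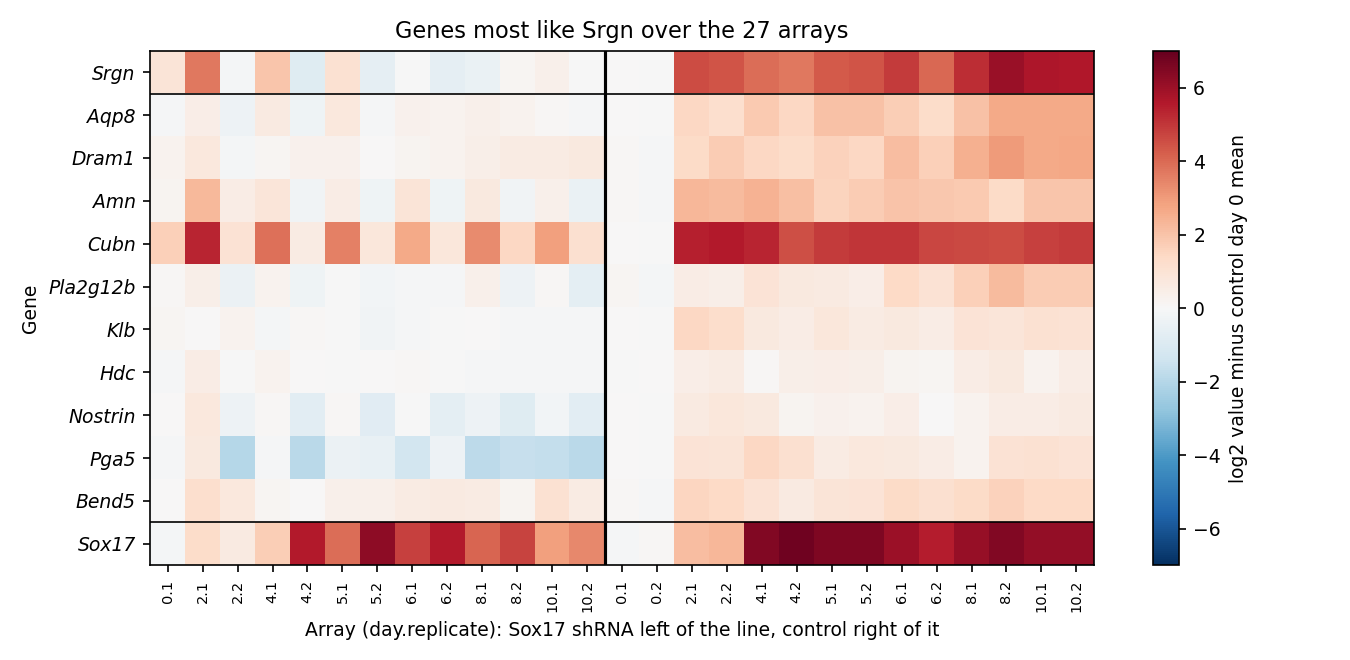
Srgn (top row), the 10 genes with the highest r to it, and Sox17 (bottom row) over the 27 arrays, as log2 value minus the mean of the control arrays of day 0; columns are arrays (day.replicate), Sox17 shRNA left of the vertical line and control right of it. In the left block the day 2 column of replicate 1 is red for Srgn (9.43) and Cubn (9.72) and that of replicate 2 is pale (5.64 and 5.40), while the Sox17 row is deep red from day 4 on in control and uneven with Sox17 shRNA, where replicate 1 of day 4 (5.53) stays near its day 2 value (5.12).

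Other genes of proteoglycan biology differed in both directions. Over days 4 to 10, 27% of all genes tested were called, 12.2% lower with Sox17 shRNA and 14.8% higher (limma adjusted p below 0.05, 10 arrays per arm), with a median difference of 0.01. Of 26 other proteoglycan core proteins 25 could be tested, of which 8 were lower, 5 higher and 12 not called, with a median of 0.01. Among the lower were Spock1, a testican (-0.53, SE 0.08, limma adjusted p = 8.46e-05), Ptprz1, a receptor phosphatase proteoglycan (-0.496), Sdc4, a syndecan of focal adhesions (-0.46), and Gpc3, a glypican of the cell surface (-0.42). The other Sdc4 probe set gave 0.0098. Among the higher were Fmod (0.57, SE 0.17) and Dcn (0.51), small leucine-rich proteoglycans of connective tissue, the syndecan Sdc1 (0.499) and the glypican Gpc1 (0.37). The differences of Fmod and Dcn were -0.02 and -0.18 at day 4 and 2.36 and 2.20 at day 10. Bgn, of the same family and named after its values were seen, was lower on the mean of these days (-0.38, SE 0.08, limma adjusted p = 0.00131). Its difference was -1.56 at day 2, 0.12 at day 4 and -2.09 at day 10. The median of Bgn over days 4 to 10 was 6.96 with Sox17 shRNA and 6.56 in control. Among the 25, the differences spanned -0.53 to 0.57.

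Of 41 enzymes and cofactor genes that build sulfated chains, 36 were tested, of which 2 were lower, 9 higher and 25 not called (median 0.04). Over all genes tested 27% were called, and the higher enzymes numbered 5 to 12 under other settings. Hs3st1, a heparan sulfate sulfotransferase, was lowest (-1.67, SE 0.20, limma adjusted p = 5.04e-06): its Sox17 shRNA arrays had a lowest, median and highest value of 4.69, 5.70 and 7.09 and its control arrays of 6.01, 7.29 and 9.09. Hs6st1 was the other lower one (-0.32). The higher ones included Csgalnact2 (0.72) and Csgalnact1 (0.400), which start chondroitin chains, Chst7 (0.48) and Dse (0.44). Ndst2, which sulfates the heparin chains of serglycin in mast cells, differed by 0.08 (limma adjusted p = 0.282), and Chst15, which makes the highly sulfated chondroitin of mast cells, by -0.34 (0.116).

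Most genes for cargo of serglycin granules were too low to test. Of 17 genes of this kind, with the serglycin-binding receptor Cd44 counted among them, 9 did not pass the filter on low values, among them the mast cell protease Cpa3 (4.12 to 4.89 over all arrays) and granzyme B, Gzmb (4.56 to 5.32). Of the 8 tested, 4 were higher and 4 were not called, where 14.8% of all genes were higher. Mmp9, a matrix protease, differed by 0.94 (SE 0.10, limma adjusted p = 1.14e-06) and the platelet chemokines Pf4 and Ppbp by 0.88 and 0.45. At day 10 their differences were 2.62 (Pf4) and 2.68 (Ppbp), against 0.15 and 0.20 at day 4. Over days 4 to 10 the control arrays of Ppbp reached at most 5.18, under the filter value of 5.53, and its Sox17 shRNA arrays 7.43. Its median was 3.90 with Sox17 shRNA and 4.32 in control. With the filter set at 5 arrays Ppbp was not tested and 3 genes were higher. Cd44 differed by 0.72, but its 4 probe sets ranged from -0.06 to 0.75.

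**Figure D4:**
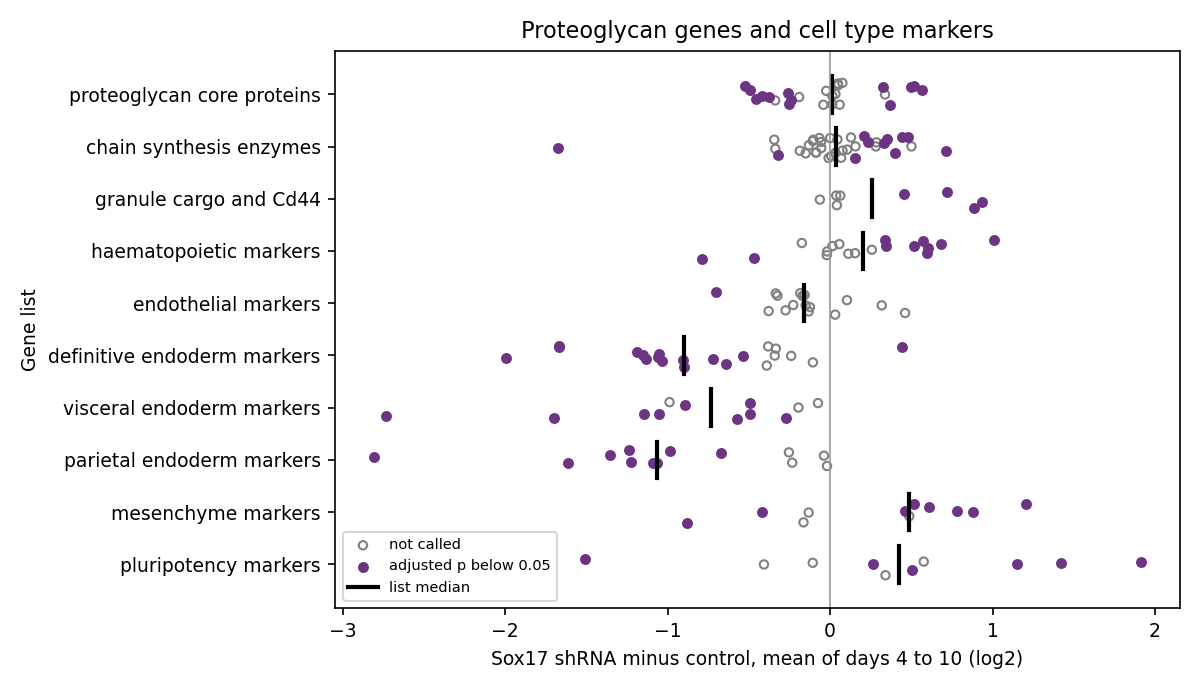
Sox17 shRNA minus control, mean of days 4 to 10 on the log2 scale, for each tested member of the proteoglycan lists and cell type marker lists; filled points passed an adjusted p of 0.05, open points did not, and black bars are list medians. The 3 endoderm lists have medians of -0.90, -0.73 and -1.07, and the proteoglycan lists lie around 0.

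Markers of blood, a known source of serglycin, differed in both directions. Of 20 haematopoietic markers 18 were tested, with 8 higher and 2 lower (median 0.21), where 14.8% of all genes were higher and 12.2% lower. Tal1, a regulator of blood progenitors, was 1.01 higher, Myb 0.69, Gata1 0.60 and Itga2b, the platelet integrin, 0.60, while Kit (-0.79) and Cd34 (-0.47) were lower. The pan-leukocyte marker Ptprc did not pass the filter, with values of 3.27 to 4.54. Summed on the linear scale, the blood markers ranged from 1511 to 2340 in the 10 Sox17 shRNA arrays and from 1495 to 2205 in the 10 control arrays. Of 17 endothelial markers 16 were tested, with Emcn lower (-0.70) and 15 not called.

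Most endoderm markers were lower, where 12.2% of all genes were. Of 12 tested visceral endoderm markers 9 were lower and 3 were not called (median -0.73), with Cubn at -2.73 (SE 0.52, limma adjusted p = 6.38e-04), Amn at -1.70 and Dab2, an endocytic adaptor, at -1.15. Of 13 parietal endoderm markers 9 were lower and 4 were not called (median -1.07), with the laminin chain Lama1 at -2.81 (SE 0.22, limma adjusted p = 4.80e-08) and Pth1r, a hormone receptor, at -1.61. Of 21 definitive endoderm markers, Sox17 among them, 14 were lower and 1 higher (median -0.90). The definitive endoderm sum ranged from 7057 to 17878 with Sox17 shRNA and from 11452 to 22560 in control. The visceral sum ranged from 1739 to 8831 with Sox17 shRNA and from 4666 to 11819 in control, and the parietal sum from 4590 to 23150 with Sox17 shRNA and from 8679 to 40455 in control.

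The extraembryonic sums parted between the Sox17 shRNA replicates of day 2, as Srgn did. The parietal sum was 3390 in replicate 1 and 2266 in replicate 2, against 5383 and 5706 in control. The visceral sum was 5397 in replicate 1 and 2951 in replicate 2, against 5002 and 5266 in control. On the day 0 arrays the visceral sum was 3458 with Sox17 shRNA, against 4737 and 4340 in control. The parietal sum was then 3600, against 3620 and 3707. At day 2 the endothelial sum (2549 and 2159) and the haematopoietic sum (2349 and 2149) were also higher in replicate 1. So was the mesenchyme sum (571 and 547). The definitive endoderm sum (7304.9 and 7347.5) and the pluripotency sum (20807 and 20868) were not. At day 4 the visceral and parietal sums were again higher in Sox17 shRNA replicate 1, as Srgn was. The visceral sum was then 4603 in replicate 1 and 1739 in replicate 2, and the parietal sum 5030 and 4590. By mean log2 value the parietal markers were the other way at day 4, with 7.34 in replicate 1 and 7.42 in replicate 2. On days 5 and 6 both sums were higher in Sox17 shRNA replicate 2, whereas Srgn was higher in replicate 1. At day 5 the visceral sum was 3099 in replicate 1 and 3399 in replicate 2, and the parietal sum 5467 and 6128. The mean log2 value of the visceral markers was the other way at day 5, with 7.06 in replicate 1 and 6.19 in replicate 2. At day 6 the visceral sum was 3723 and 5912, and the parietal sum 9154 and 14496. On days 8 and 10 the visceral sum was higher in replicate 1 (8831 and 4076, then 7868 and 3174). The parietal sum was higher in replicate 2 on both days (16240 and 21290, then 18240 and 23150). Srgn was higher in replicate 2 at day 8 and in replicate 1 at day 10. The part of these cell types in the Srgn difference was not tested. Mesenchyme markers were higher in 6 and lower in 2 of 11 (median 0.49), and pluripotency markers higher in 5 and lower in 1 of 10 (median 0.42). Over all genes tested, 14.8% were higher and 12.2% lower. An alternative added after seeing the data left out the 2 arrays of high 3′ to 5′ difference. In that fit 5 of 36 chain enzymes were lower and 6 higher, and 2 of 16 endothelial markers were lower and 2 higher. Lower in the same fit were 9 of 12 visceral, 11 of 13 parietal and 18 of 21 definitive endoderm markers. The number of all genes called ranged from 3075 to 4209 over the settings run, so nothing is read from the shift in these counts.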

How the data were processed

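The authors deposited 1 value per probe set and array on a log2 scale (2.66 to 14.5, array medians 5.50 to 5.56), made with RMA per the submitters' processing notes. RMA corrects background, normalizes quantiles between arrays and summarises probes. Neither its version nor a joint run of all arrays is stated there.

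Probe sets were named by the platform's annotation table: 34958 have 1 symbol, 932 several, and 9211 are unnamed here. Of 34958, 23536 exceeded the overall median (5.53) in at least 2 arrays, and the one with the highest mean stood for each of 13297 genes. limma 3.58.1 in R 4.3.3 fitted 14 group means to 27 arrays (13 residual degrees of freedom, variances moderated with an intensity trend), with two-sided p-values adjusted by Benjamini-Hochberg over all genes. The number of arrays limits the precision. The procedure was tested on simulated data. SE is from this fit.

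The gene, the lists and the naming rule were chosen with earlier results of these data known. Named were the 3 genes next to Srgn, the 10 most and 5 least like it, and list members called over days 4 to 10 (up to 8 per list, otherwise up to the 4 lowest and 4 highest, of which the text gives a selection), with 6 partners of serglycin. Of 70 such genes 31 had several probe sets, and in 3 their signs differed (Cd44, Lrp2 and Sdc4). Alternatives changed the filter, probe set, trend, centring, spike-in term, arrays, replicate block and likeness measure.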

Additional observations from a re-analysis of the deposited data

Results flagged for a closer look

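Srgn was 0.90 (log2) higher on the single Sox17 shRNA array of day 0 than the control mean, above both control arrays, whereas at each day from 2 to 10 every Sox17 shRNA array lay below the control arrays of its day. It stands here because the sign at day 0 is opposite to that at every later day. The test of this difference between days 0 and 2 did not pass (limma adjusted p = 0.485), and between day 0 and the later days it was not tested, since those days chose the gene.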

How the results depend on the processing

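The mean Srgn difference of days 4 to 10 kept its sign under all alternatives run, from -5.61 (days 8 and 10 alone) to -3.70 (days 4 and 5 alone), both chosen after seeing the data, and from -4.96 to -4.40 with 1 array left out in turn. It was -4.82 with the spike-in term and -4.34 without the 2 arrays of high 3′ to 5′ difference. The control rise to day 2 passed throughout (4.38 to 4.56 with 1 array left out, limma adjusted p up to 0.00861). The day 0 difference passed only when the 3 arrays of that day were fitted alone (0.90, limma adjusted p = 3.73e-04), a fit whose spread comes from the 2 control arrays. The day 2 difference ranged from -4.60 to -0.81 with 1 array left out, and its adjusted p was 0.0567 to 0.15 under the other settings. The day 0 to day 2 change of the Sox17 shRNA arm ranged from -1.03 (without replicate 1 of day 2) to 2.76 (without replicate 2), and its difference from control from -5.50 to -1.71.

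Genes called over days 4 to 10 numbered 3593, 3075 to 4121 with 1 array left out and 3234 to 4209 otherwise. Of 85 called list genes 70 passed in all 29 settings that held them. With other settings, lower members numbered 2 to 5 for chain enzymes, 1 to 4 for endothelial and 1 to 4 for mesenchyme markers, and higher chain enzymes 5 to 12. With the probe set of largest variance Sdc4 (0.0098), Hnf4a (0.026) and Spock2 (0.036) changed sign. Of the 10 genes most like Srgn, 5 were among the top 10 by Spearman's correlation and 4 by Pearson's after subtracting day means, Amn and Cubn being in neither, and all 10 were among the top 100 by either.

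The correlation over genes of the same-numbered replicates' deviations was 0.68 at day 4, where the numbers also differed in spike-in signal in both arms, and 0.0986 to 0.22 on the other days. Not every pair exceeded 0.1, so the numbers were not taken to pair the samples over the whole course. With a replicate block the day 2 difference was -2.70 (limma adjusted p = 0.0846), 4209 genes were called over days 4 to 10, and no Srgn call changed.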
